A study of Mus musculus with 3 samples.

Results

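Type I interferon response genes were followed through splenic B cells of immunized mice. The set was a list of 45 genes, found by symbol among the 32285 genes of the deposited tables, and 44 of them had a row there. *Mx1*, an antiviral GTPase, was not analysed here. The list held the IFIT proteins (*Ifit1*, *Ifit2*, *Ifit3*, *Ifit3b*), 5 members of the OAS family, the transcription factors *Irf7*, *Irf9* and *Stat2*, the genes of the ISG15 system (*Isg15*, *Usp18*, *Herc6*), 6 HIN-200 genes, 5 PARP and TRIM genes including *Dtx3l*, the partner of *Parp9*, 3 sensors of foreign nucleic acid, 4 measured interferon-induced GTPases and 11 other effectors.

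Mice had received SRBCs (sheep erythrocytes), an antigen that drives the germinal center (GC) reaction, 10 days before their spleens were taken. There was 1 library of droplet-based 3′ RNA sequencing for each genotype, in which a unique molecular identifier (UMI) marks each captured RNA molecule. WT mice carried no transgene. 3′RR-*BCL2* mice carried a human *BCL2* cassette with both of its promoters. It was inserted at random and driven by the core of the 3′ regulatory region (3′RR) of the immunoglobulin heavy chain locus. Igκ-*BCL2* mice carried the same cassette knocked in at the κ light chain locus in place of the Jκ segments. The study describes its mice of both models as hemizygous, with homozygous knock-in mice in some experiments. Its single-cell methods do not give the zygosity. All were of a mixed C57BL/6 and 129 background. The number and the age of the mice behind each library are not given in the sources used here. The labels call the WT cells sorted B cells and the cells of both *BCL2* libraries whole tissue cells, whereas the methods of the study describe magnetic selection of B cells for each genotype.

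After the limits on cell quality 9932 cells of WT, 6561 of 3′RR-*BCL2* and 6243 of Igκ-*BCL2* remained, with medians of 5031, 5291 and 4838 UMIs per cell, and between 15 and 24 cell barcodes were shared by each pair of libraries. With 1 library per genotype no test was possible, and the difference between genotypes cannot be told apart from the difference between libraries. Intervals in parentheses are exact, at the 95% level, and reflect counting error alone. Wherever 3 values follow each other they are in the order WT, 3′RR-*BCL2*, Igκ-*BCL2*. The libraries also differed in sex-linked RNA and in heat shock RNA. *Xist*, expressed in female cells, stood at 0.156, 1719 and 0.174 CPM (UMIs per 1000000 UMIs), and the Y-linked *Ddx3y* at 202, 0.0249 and 192, so that the 3′RR-*BCL2* library differed from the others in sex. The 8 heat shock genes listed summed to 1448, 4400 and 6804 CPM in resting cells. The 6 T cell markers were near 0 in each library, with 1.11 to 2.24 CPM in sum, and the 6 macrophage markers summed to 45, 10.8 and 2.38 over all kept cells, but to 2.48, 1.41 and 1.19 in resting cells.

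Type I interferons bind a receptor made of IFNAR1 and IFNAR2, whose kinases JAK1 and TYK2 phosphorylate STAT proteins, STAT2 among them. With IRF9, STAT2 enters a complex that binds the interferon-stimulated response element in promoters and switches on antiviral genes, and IRF7 carries the response further by inducing more interferon. In B cells a basal level of this program is present without infection.

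The core of the response element can be written as GAAA, any 2 bases and GAAA, on either strand. Promoter windows of RefSeq, from 250 bases before to 50 bases after the start of a gene in GRCm38.p6, were found for 35 of the members. The core was present in 21 of them (60%), against 3.99% of 27025 genes with a window of this length. A match describes these letters only and does not show binding. The stretches below, of 60 bases each and written 5′ to 3′ in the direction of the gene, are shown because they belong to *Ifit1*, *Ifit3* and *Isg15*, by which interferon-responding cells were recognized, to *Rsad2*, the member with the steepest difference in those cells, and to *Stat2*, one of the flattest. Capitals mark the core, which reads TTTC, 2 bases and TTTC where it lies on the opposite strand.
Ifit1 (chr19:34640770-34640829, + strand): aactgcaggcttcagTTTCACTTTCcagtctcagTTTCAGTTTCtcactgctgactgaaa
Ifit3 (chr19:34583358-34583417, + strand): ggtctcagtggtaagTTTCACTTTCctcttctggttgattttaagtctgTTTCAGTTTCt
Isg15 (chr4:156200852-156200911, - strand): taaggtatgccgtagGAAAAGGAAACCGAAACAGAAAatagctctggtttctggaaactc
Rsad2 (chr12:26456528-26456587, - strand): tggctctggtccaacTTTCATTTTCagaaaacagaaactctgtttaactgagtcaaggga
Stat2 (chr10:128270261-128270320, + strand): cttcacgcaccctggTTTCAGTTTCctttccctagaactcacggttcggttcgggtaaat
The stretches of *Ifit1* and *Ifit3* held 2 cores each, and that of *Isg15* held 3 that overlap, while 1 was present in those of *Rsad2* and *Stat2*.

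B cells were first assigned to stages by markers that include no interferon gene, after each cell had been thinned to 2000 UMIs. Resting cells, which held UMIs of at least 2 of 6 follicular markers such as *Fcer2a* and *Ighd* and did not reach the limit of another stage, numbered 7908, 4620 and 4878. GC cells, with at least 2 of 10 markers such as *S1pr2* and *Mybl1*, numbered 100, 723 and 332. The levels below are sums of UMIs over all cells of a stage, per 1000000 UMIs of these cells (CPM). As each RNA molecule is counted at its 3′ end, these levels do not depend on gene length.

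In resting cells the response genes covered a wide range of levels, and a few members held most of the UMIs. *Ifi27l2a*, an interferon-induced mitochondrial protein gene, was the most abundant, at 439, 550 and 465 CPM. It was followed by *Ifi203*, a HIN-200 gene, at 318, 383 and 314, and by *Samd9l*, a restriction factor for viruses, at 217, 199 and 194. *Ifi209*, *Trim30a* and *Ifi213* came next, with means over the libraries of 202, 120 and 81.3. At the other end the mean was 2.31 for *Ifit3b*, 0.84 for *Ifi44* and 0.203 for *Ifi204*. The anchor genes *Ifit1*, *Ifit3*, *Ifit3b*, *Isg15* and *Usp18* all lay low, with means of 2.43, 9.88, 2.31, 10.5 and 7.6. The members of the receptor pathway were more abundant, at 75.4 for *Irf9* and 54.9 for *Stat2*. *Ifit3* and *Ifit3b*, *Trim30a* and *Trim30d*, and the HIN-200 genes are close copies of each other, so their separate levels are uncertain where reads could be assigned to either.

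**Figure D1:**
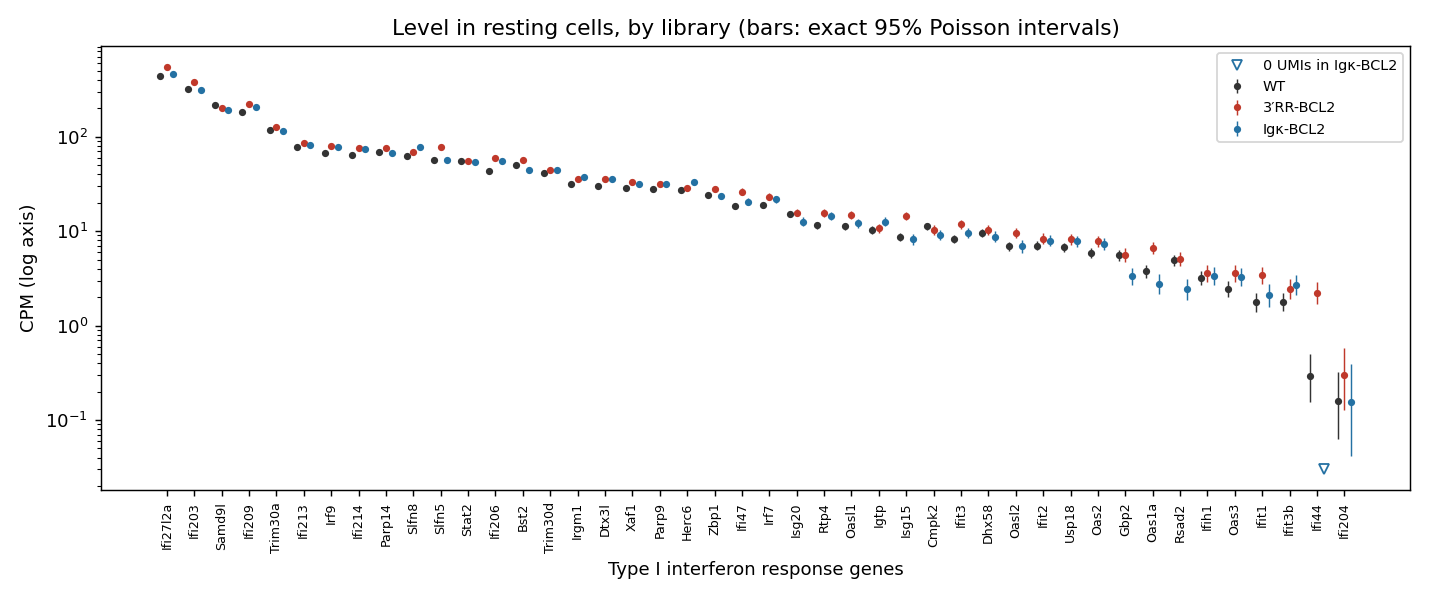
Level of each of the 44 measured genes in resting cells, in CPM on a log axis, with 1 point per library and exact 95% Poisson intervals as bars. The order runs from *Ifi27l2a* to *Ifi204*, and the open triangle marks *Ifi44*, which had 0 UMIs in Igκ-*BCL2*.

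The summed level of the 44 genes was highest in transitional cells and lowest in GC cells in every library. In resting cells it was 2203 CPM (2189 to 2217), 2572 (2552 to 2591) and 2298 (2280 to 2317). In transitional cells it was 2641 (2573 to 2710), 3216 (3099 to 3337) and 2533 (2445 to 2622), and in GC cells 1232 (1159 to 1308), 1210 (1181 to 1239) and 1070 (1030 to 1112). The intervals of transitional, resting and GC cells did not overlap within any library. Transitional cells needed at least 2 of 8 markers. Of the cells that reached this limit 374 of 426, 170 of 190 and 247 of 278 held exactly 2. The transitional level was not recomputed with stages from clusters. Marginal zone cells stood at 1995, 2429 and 1825, activated cells at 1824, 2231 and 1708, and B-1 or memory cells at 2248, 2233 and 2133. Cells called plasma by at least 4 of 13 markers, 29, 28 and 39 in number, stood at 1866, 2523 and 1803. In each library their interval overlapped that of marginal zone cells. Of the cells that reached this limit 36 of 40, 51 of 59 and 45 of 57 held exactly 4 markers. Cells called plasma had a median of 4 resting follicular markers in each library, as resting cells did, so their name is uncertain. *Ifi27l2a* was the only member whose interval for transitional over resting cells lay above 0 in all 3 libraries, with log2 ratios of 0.56, 0.72 and 0.33. Such intervals were found for 3.18% of the 5757 genes with at least 20 CPM on average over all kept cells, a limit that 23 members passed, so 1 of 23 was near that share.

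**Figure D2:**
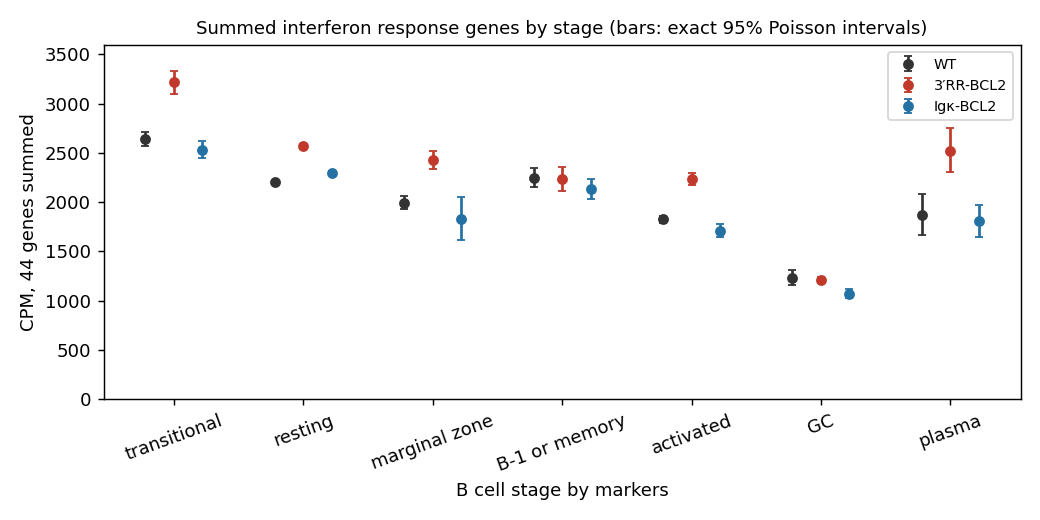
Summed CPM of the 44 genes in each B cell stage defined by markers, with 1 point per library and exact 95% Poisson intervals as bars. GC cells lie lowest in all 3 libraries, between 1070 and 1232, and transitional cells highest, between 2533 and 3216.

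The first comparison asked how the response genes stood in resting cells of each *BCL2* library against WT. In 3′RR-*BCL2* nearly every member was slightly higher. Of 43 members with at least 20 UMIs in both sets together 41 were higher, when 36.3% of 13085 genes were. The median log2 ratio was 0.25 for the members and -0.07 for all genes, and the summed level was 1.17-fold higher (log2 ratio 0.22, 0.21 to 0.24). The interval lay above 0 for 30 members, against 12% of genes, and below 0 for 1, *Samd9l*, against 26.2%. The shift was small, as only 4 members were over 1.5-fold higher, against 4.89% of genes, and 0 were over 1.5-fold lower, against 5.68%.

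The members over this limit were *Ifi44*, *Ifit1*, *Oas1a* and *Isg15*. *Isg15*, a ubiquitin-like modifier, stood at 8.62, 14.6 and 8.22 CPM, a log2 ratio of 0.76 (0.55 to 0.97) for 3′RR-*BCL2* over WT. *Oas1a*, whose enzyme activates RNase L, stood at 3.76, 6.61 and 2.77, and the log2 ratio was 0.81 (0.50 to 1.13). For *Ifit1*, which binds foreign RNA caps, the levels were 1.76, 3.41 and 2.11, with a log2 ratio of 0.96 (0.51 to 1.41). In each of these 3 genes 3′RR-*BCL2* was the highest library and its interval did not overlap that of WT.

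*Ifi44* showed the widest gap between libraries. It had 13 UMIs in 11 resting WT cells, 60 UMIs in 37 resting 3′RR-*BCL2* cells and 0 UMIs in 4878 resting Igκ-*BCL2* cells, that is 0.293, 2.23 and 0 CPM. The log2 ratio of 3′RR-*BCL2* over WT was 2.93 (2.05 to 3.92). A count of 0 allows up to 3 counts, which equal 0.115 CPM in Igκ-*BCL2*. The level in 3′RR-*BCL2* was 19.3-fold and that in WT 2.54-fold above this value, without the counting error of these 2 libraries. With that error, the exact interval of the log2 ratio of Igκ-*BCL2* reached up to -3.93 over 3′RR-*BCL2* and -0.84 over WT. The UMIs did not come from a single cell, as the most in 1 cell was 6 in 3′RR-*BCL2* and 3 in WT.

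The members with intervals above 0 came from every family. They numbered 5 of 5 OAS genes, 5 of 5 HIN-200 genes with enough UMIs, 4 of 5 PARP and TRIM genes, 7 of 11 other effectors, 2 of 3 transcription factors and 2 of 3 genes of the ISG15 system. The IFIT genes and the GTPases had 2 of 4 each, and the nucleic acid sensors 1 of 3. *Ifi206*, for example, stood at 42.8, 59.8 and 55.6 CPM. Both *BCL2* libraries were higher than WT for this gene, with log2 ratios of 0.48 (0.39 to 0.58) and 0.38 (0.28 to 0.48). *Ifi47*, a GTPase, stood at 18.5, 26.2 and 20.5, with a log2 ratio of 0.51 (0.36 to 0.66) in 3′RR-*BCL2*. The smallest differences were those of *Gbp2*, at a log2 ratio of 0.02, *Stat2* at 0.03, and *Isg20*, *Igtp* and *Rsad2* at 0.05 each, all with intervals that include 0. *Cmpk2*, at -0.12 (-0.34 to 0.09), and *Samd9l*, at -0.13 (-0.17 to -0.08), were the members below WT.

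Igκ-*BCL2* resting cells did not show this uniform shift. Of 42 members 26 were higher than in WT, beside 53.9% of 13188 genes, and the median log2 ratio was 0.13 for the members and 0.02 for all genes. The interval lay above 0 for 16 of the 42 members (38.1%), against 24% of genes. It lay below 0 for 7 (16.7%), against 19.7%. The summed level was 1.04-fold that of WT (log2 ratio 0.06, 0.05 to 0.08), with an interval that leaves out variation between cells. *Ifit3b* alone was over 1.5-fold higher, against 9.87% of genes, and *Rsad2* and *Gbp2* were over 1.5-fold lower, against 5.36%. *Rsad2*, which encodes the antiviral enzyme viperin, stood at 4.93, 5.09 and 2.42 CPM. The log2 ratio of Igκ-*BCL2* was -1.03 (-1.45 to -0.62) over WT, and the other libraries did not differ beyond counting error. With stages from clusters this ratio was -0.17, so the gap depended on which cells were called resting. *Gbp2*, a guanylate-binding protein gene, stood at 5.54, 5.6 and 3.34, with a log2 ratio of -0.73 (-1.10 to -0.37). Among the members with more UMIs *Slfn8* was at 62.6, 68.1 and 76.9, highest in Igκ-*BCL2*, and *Herc6*, the mouse ISG15 ligase, at 27.2, 28.3 and 32.9.

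Between the *BCL2* libraries, 6 of 43 members were higher in Igκ-*BCL2* than in 3′RR-*BCL2*, while 64.5% of 12753 genes were. Of the members 6 were over 1.5-fold lower in Igκ-*BCL2*, against 3.95% of genes, namely *Oas1a*, *Rsad2*, *Isg15*, *Gbp2*, *Ifit1* and *Ifi44*, and 0 were over 1.5-fold higher, against 9.18%. The median log2 ratio was -0.13 for the members and 0.08 for all genes. These 3 comparisons share their libraries, so each of them is a description of the same 3 sets of cells. Sex-linked RNA moved together with the higher level in 3′RR-*BCL2*, and heat shock RNA was higher in both *BCL2* libraries. Sex and genotype cannot be told apart here, and the part of heat shock in the result was not tested.

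**Figure D3:**
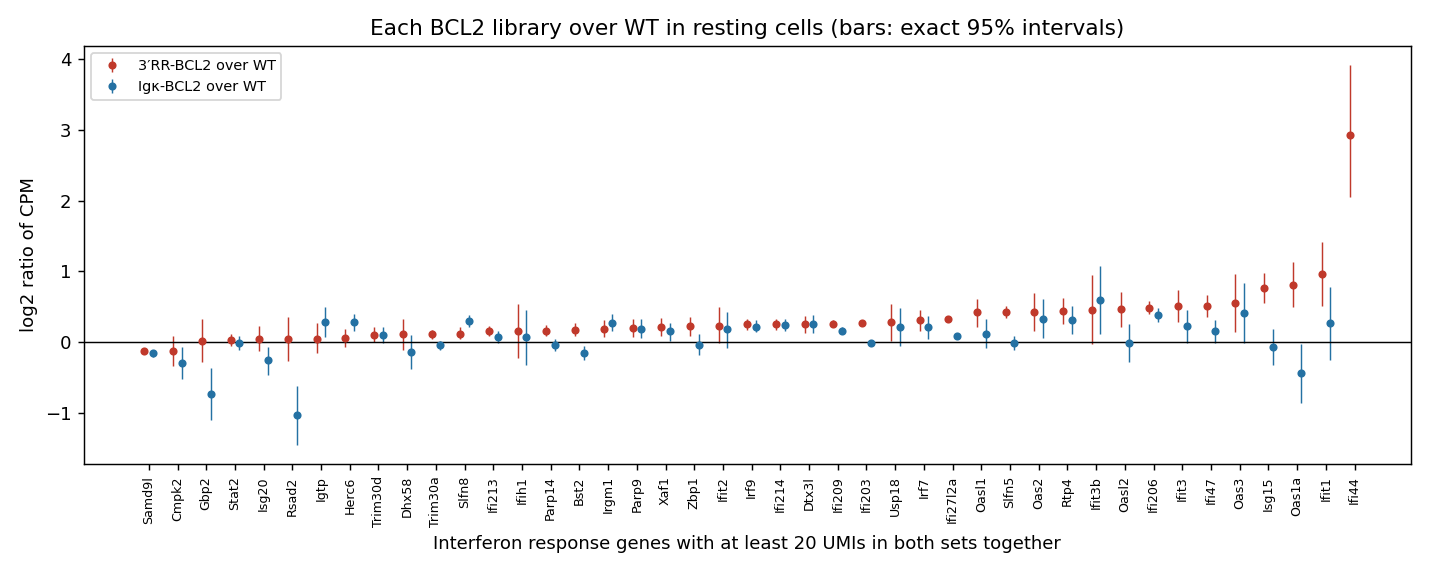
Log2 ratio of CPM in resting cells of 3′RR-*BCL2* over WT and of Igκ-*BCL2* over WT for members with at least 20 UMIs in both sets together, with exact 95% intervals as bars. 41 of 43 points of 3′RR-*BCL2* lie above 0, and *Ifi44* is highest at 2.93, while those of Igκ-*BCL2* lie on both sides with *Rsad2* lowest at -1.03.

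By the sum of all members, the excess in 3′RR-*BCL2* was also present in transitional, marginal zone, activated and plasma cells. By this sum it was not present in GC cells or B-1 or memory cells. The log2 ratio of the summed level over WT was 0.28 (0.22 to 0.35) in transitional, 0.28 (0.21 to 0.36) in marginal zone and 0.29 (0.24 to 0.34) in activated cells. It was 0.44 (0.23 to 0.64) in the few cells called plasma, -0.01 (-0.11 to 0.09) in B-1 or memory cells and -0.03 (-0.12 to 0.07) in GC cells. The result depended on the genes summed. Without the 5 most abundant members the value in cells called plasma was 0.26 (-0.06 to 0.58). The anchor genes alone gave 1.18 (0.25 to 2.13) in B-1 or memory cells and 0.62 (-0.32 to 1.72) in GC cells. For Igκ-*BCL2* over WT the log2 ratio of the summed level was -0.06 (-0.12 to 0.00) in transitional, -0.09 (-0.16 to -0.03) in activated and -0.20 (-0.31 to -0.10) in GC cells. Over all kept cells, where 3′RR-*BCL2* held more GC cells, the log2 ratio of 3′RR-*BCL2* over WT was 0.11 (0.10 to 0.12) and that of Igκ-*BCL2* 0.00 (-0.01 to 0.01).

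The second comparison asked how GC cells stood against resting cells of the same library. Most response genes were lower in GC cells in all 3 libraries. The summed level was lower, with log2 ratios of -0.84 (-0.93 to -0.75), -1.09 (-1.12 to -1.05) and -1.10 (-1.16 to -1.05). GC cells also carried more UMIs in all, and without scaling to the total the members still had fewer UMIs per cell, with 10.7, 9.27 and 7.99 in GC and 12.4, 15 and 12.3 in resting cells. The gap in UMIs per cell was thus smaller than that in the scaled levels. The WT value rests on 100 GC cells, 43 of which held exactly the 2 markers required, as did 308 of 723 and 152 of 332 in the *BCL2* libraries.

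Counts over genes were again taken for the 5757 genes past the limit of 20 CPM over all kept cells. Resting cells made up 79.6%, 70.4% and 78.1% of kept cells, so this limit favors genes that are higher in resting cells. *Slfn5*, for example, passed with 10.4, 16.6 and 9.68 CPM in GC cells. *Isg20*, which was higher in GC cells in each library, did not pass. The same limit held for all genes. Of the 23 members past this limit 15, 16 and 18 were over 1.5-fold lower in GC cells, against 20%, 10.8% and 11.2% of genes. There were 0 members over 1.5-fold higher in each library, against 17.5%, 9.81% and 9.85% of genes. In all 3 libraries 18 of 23 members were lower by any amount, against 34.3% of genes, and 14 were over 1.5-fold lower, against 7.47%. The reverse, higher in all 3, held for 1 member, *Irf7*, against 35.1% of genes. The median log2 ratio of the members was -0.92, -0.95 and -0.89, and that of all genes -0.03, 0.03 and 0.01.

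The HIN-200 genes were among the furthest below. *Ifi203* stood at 318, 383 and 314 CPM in resting and at 65.7, 92.2 and 65 in GC cells, with log2 ratios of -2.28 (-2.68 to -1.90), -2.05 and -2.28. *Ifi206*, *Ifi209*, *Ifi213* and *Ifi214* likewise had intervals below 0 in each library, whereas *Ifi204*, with at most 8 UMIs in resting and 0 in GC cells, could not be compared. With stages from clusters the ratios of *Ifi203* were -1.20, -1.73 and -1.34. The clusters called GC were mixed. By markers 47.9% and 55.9% of their cells were GC cells, and 30.7% and 12.7% were resting cells. *Slfn5*, a Schlafen family gene, stood at 57.3, 77 and 56.7 in resting and at 10.4, 16.6 and 9.68 in GC cells, with log2 ratios of -2.47, -2.21 and -2.55. GC cells were the lower group in every library for each of these genes.

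Of the 23 members 16 had intervals below 0 in all 3 libraries, against 16.2% of genes. By family these were 6 of 6 other effectors, 5 of 5 HIN-200 genes, 3 of 5 PARP and TRIM genes, 1 of 3 transcription factors and 1 of 2 GTPases, with 0 of 1 in the ISG15 system and 0 of 1 among the sensors. Under the limit on level was *Rtp4*, a chaperone of receptors, with log2 ratios of -2.33, -2.44 and -2.15 from 2, 16 and 8 UMIs in GC cells. *Bst2*, which tethers budding viruses and passed the limit, had -1.05, -1.37 and -1.59. *Ifi27l2a* was lower by less, with -0.28 (-0.45 to -0.12), -0.94 and -0.82, and its direction in WT turned when stages came from clusters (0.20, 0.09 to 0.30). *Rsad2* had 0, 5 and 0 UMIs in GC cells. The anchor genes were sparse in GC cells, with 1, 12 and 6 UMIs of *Ifit3* and 5, 56 and 12 of *Isg15*. *Ifit3* had an interval below 0 in all 3 libraries, with log2 ratios of -2.84, -2.44 and -1.99, and *Isg15* did not, with -0.58, -0.53 and -0.76.

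The transcription factors did not move together. *Irf9* was lower in GC cells, with log2 ratios of -1.23, -0.95 and -0.75, and *Stat2* was lower by less, at -0.28 (-0.78 to 0.17), -0.45 and -0.53. *Irf7* stood at 27.7, 29.4 and 25.8 CPM in GC cells against 18.7, 23.2 and 21.7 in resting cells. Its log2 ratios were 0.56 (-0.09 to 1.15), 0.34 (0.08 to 0.59) and 0.25 (-0.14 to 0.63), so that only the interval of 3′RR-*BCL2* lay above 0. *Isg20*, an exonuclease gene, was also above 0 in each library, at 0.80, 0.25 and 0.46, with an interval above 0 in WT. *Herc6* had intervals that include 0 in every library, with log2 ratios of 0.25, 0.10 and -0.28. *Dtx3l*, *Parp9* and *Zbp1*, a sensor of Z-form nucleic acid, had such intervals in WT and 3′RR-*BCL2*, while in Igκ-*BCL2* they were lower in GC cells, at -0.52, -0.70 and -0.73.

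**Figure D4:**
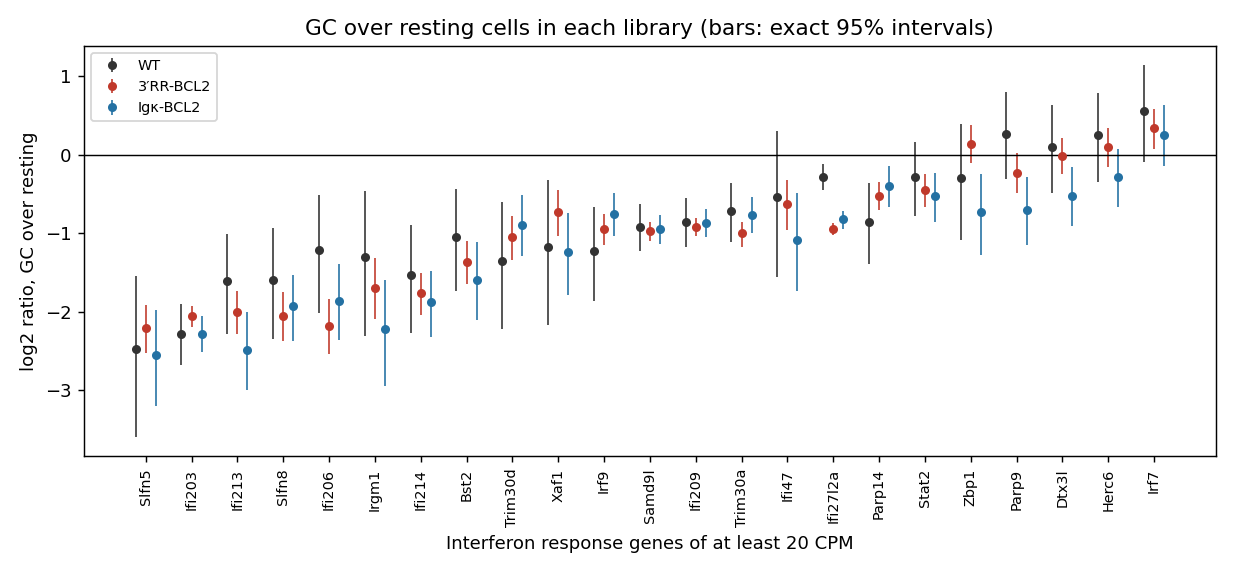
Log2 ratio of GC over resting cells for the 23 members of at least 20 CPM, with 1 point per library and exact 95% intervals as bars. *Slfn5* lies lowest in each library, at -2.47, -2.21 and -2.55, and *Irf7* is the only member above 0 in all 3.

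The third comparison asked whether the response genes were spread evenly over cells or concentrated in a few. After thinning, a cell held on average 4.29, 4.79 and 4.51 member UMIs, and the highest cell held 63, 95 and 78. The median was 3, 4 and 3, and the highest 5% of cells held 20.6%, 21.2% and 21.8% of all member UMIs. Thus most cells carried some member RNA, since cells with 0 UMIs made up 6.38%, 5.77% and 7.38%. The 5 anchor genes were different, with 0 UMIs in 96%, 94.9% and 96.1% of cells. The ratio of variance to mean over cells, which is 1 for random sampling, had a median of 1.18, 1.23 and 1.28 over the 39, 41 and 40 members measured, and of 1.07, 1.07 and 1.1 over all genes measured. In WT it was 2.54 for *Ifi27l2a*, 2.15 for *Rsad2*, 1.71 for *Slfn5* and 1.65 for *Ifit3*.

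Cells were grouped by how many of the 5 anchor genes had a UMI, and the other 39 members were then read in these groups. The level of the others climbed with every additional anchor gene in each library. In CPM it was 2001, 4381, 9115 and 12268 in WT cells with UMIs of 0, 1, 2 and at least 3 anchor genes. In 3′RR-*BCL2* it was 2118, 4127, 8453 and 18107, and in Igκ-*BCL2* it was 1979, 4780, 12072 and 17754. Intervals of neighboring groups did not overlap within a library, but they leave out variation between cells. The groups with at least 3 anchor genes held only 10, 22 and 8 cells. The anchor-high cells, those with at least 3 anchor genes, were 6.13-fold, 8.55-fold and 8.97-fold above the anchor-free cells. The part of depth in these differences was not tested. Median depth in the same order of groups was 5056, 5492, 5354 and 5788.5 UMIs in WT. It was 5341, 5738, 6056 and 5007 in 3′RR-*BCL2*, and Igκ-*BCL2* had 4891, 4874, 3965.5 and 4127.5.

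**Figure D5:**
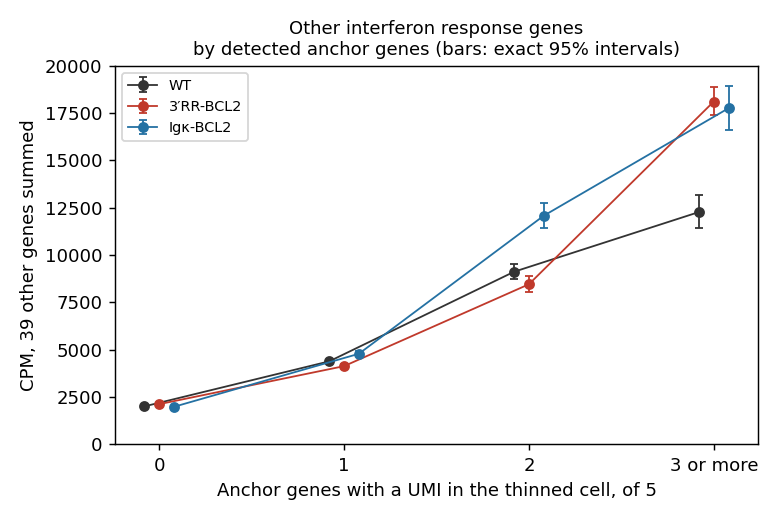
Summed CPM of the 39 members outside the anchor genes, in cells with UMIs of 0, 1, 2 or at least 3 anchor genes after thinning, with 1 line per library and exact 95% Poisson intervals as bars. The level climbs in each library, from 1979 to 2118 in cells without an anchor gene to 12268 for WT, 18107 for 3′RR-*BCL2* and 17754 for Igκ-*BCL2*.

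Anchor-high cells were rare. They made up 10 of 9754 WT cells (0.103%, 0.0492 to 0.188), 22 of 6396 3′RR-*BCL2* cells (0.344%, 0.216 to 0.52) and 8 of 6108 Igκ-*BCL2* cells (0.131%, 0.0566 to 0.258). The share in 3′RR-*BCL2* was the highest, and its interval did not overlap that of WT but did overlap that of Igκ-*BCL2*. Of these 6 of 10, 18 of 22 and 7 of 8 were resting cells, which made up 79.6%, 70.4% and 78.1% of kept cells. *Cd79a* and *Ms4a1*, which mark B cells, had a UMI in every anchor-high cell. Markers of T cells, macrophages, neutrophils and erythroid cells had 0 UMIs in them, and *Siglech*, which marks plasmacytoid dendritic cells, had 0 as well. Barcodes with 2 or more UMIs of *Cd3* or *C1q* genes had been removed before. For each of these 4 lists the exact interval in anchor-high cells reached up to 60.1, 29.5 and 71.3 CPM. Anchor-free cells lay below these limits too, so the counts of 0 say little. The 7 listed genes of plasmacytoid dendritic cells summed to 1303, 1629 and 1797 CPM in anchor-high and to 738, 717 and 705 in anchor-free cells, and this list includes *Bst2*, a member, as well as *Tcf4* and *Irf8*, which B cells express. In GC cells anchor-high cells numbered 0 of 100, 1 of 723 and 0 of 332, and the exact intervals reach up to 3.62%, 0.768% and 1.1%.

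Among the 23 members past the limit on level, 23, 23 and 22 were over 2-fold higher in anchor-high cells, against 7%, 4.62% and 9.22% of genes. With the anchor-high cells of all libraries added together, the size of the difference varied widely between members. *Rsad2* stood at 2.13 CPM in anchor-free and at 348 in anchor-high cells, 164-fold higher (log2 ratio 7.36, 6.98 to 7.72). *Ifit2* was 81.4-fold, *Oas3* 51.4-fold, *Slfn5* 30.6-fold and *Oas2* 26.5-fold higher. For *Ifi44* the pooled value was 116-fold, from libraries that differed in this gene. Its log2 ratio was 7.10 (3.91 to 9.25) from 2 UMIs in WT and 6.17 (5.08 to 7.14) from 11 UMIs in 3′RR-*BCL2*, where *Ifit2* had 6.37, and Igκ-*BCL2* had 0 UMIs. At the other end were *Gbp2* at 2.38-fold, with an interval that includes 1-fold (log2 -1.03 to 2.80), *Irf9* at 3.45-fold, *Samd9l* at 4.6-fold, *Stat2* and *Ifi27l2a* at 4.78-fold each and *Ifi203* at 5.24-fold. Outside the anchor genes, members with the promoter core did not have larger ratios. The median log2 ratio was 3.19 over 17 such members and 4.09 over 14 without the core. The anchor genes *Ifit1*, *Ifit3*, *Ifit3b* and *Isg15*, which held the core, could not enter this comparison because they define the groups.

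The share of a member's UMIs that lay in cells with an anchor gene also varied. Such cells, with at least 1 anchor gene, made up 3.96%, 5.1% and 3.88% of cells, and they held 43.1%, 66.7% and 47.4% of the UMIs of *Rsad2*. For *Slfn5* the share was 18%, 24.9% and 28.6%, and for *Ifi27l2a* 9.44%, 11.1% and 8.62%. Among sparse members *Oas3* had 30.1%, 40.3% and 32%, *Oas1a* 10.5%, 17.9% and 10.3%, and *Gbp2* 8.83%, 5.93% and 3.17%. Pairs of genes read in single cells differed likewise. *Slfn5* had a UMI in 32.8%, 50% and 54.4% of cells with *Ifit3*, but in 7.97%, 8.09% and 6.32% of cells without it. For *Irf7* these shares were 25.2%, 30% and 35.4% with *Ifit3* and 3.02%, 4.25% and 3.68% without. The gap was smaller for *Stat2*, with 18.3%, 26.7% and 17.7% against 9.31%, 9.51% and 9.47%, and for *Samd9l*, with 43.5%, 60% and 51.9% against 31.9%, 28.3% and 28.5%. *Ifit1* had a UMI in 5 of 145, 11 of 168 and 1 of 89 cells with *Isg15*, and the interval of the last share (1.12%, 0.0284 to 6.1) includes the 0.216% of cells without it.

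The rest of the pathway was read from lists of other genes. Of 10 interferon ligand genes 8 had 0 UMIs in every library, among them *Ifnb1* and all 4 *Ifna* genes listed, and *Ifng* stood at 0.18, 0.371 and 0.384 CPM in resting cells. The 18 receptor and signaling genes were level between libraries, with sums of 2163, 2178 and 2140 CPM in resting cells and a median log2 ratio of -0.07 for each *BCL2* library over WT. *Ifnar1* stood at 68.6, 59.3 and 68 and *Ifnar2* at 43.4, 37.3 and 42, both lowest in 3′RR-*BCL2*. In GC cells both receptor genes were lower than in resting cells, with log2 ratios of -1.14, -0.70 and -1.06 for *Ifnar1* and -1.15, -1.30 and -1.62 for *Ifnar2*. *Socs1*, a feedback inhibitor, stood at 9.72, 18.3 and 17 CPM in resting cells, lowest in WT, and was higher in GC cells in each library, with log2 ratios of 1.78, 1.44 and 1.70.

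A list of other interferon-induced genes, of which 47 had a row, was read in the same way. In resting cells 22 of 40 measured were higher in 3′RR-*BCL2* than in WT, beside 36.3% of genes, with a median log2 ratio of 0.03 beside -0.07 for all genes and 0.25 for the members. In Igκ-*BCL2* 18 of 40 were higher, beside 53.9% of genes, with a median of -0.02 beside 0.02. In GC cells 14, 11 and 12 of 26 were over 1.5-fold lower, beside 20%, 10.8% and 11.2% of genes, among them *Ifi208*, a HIN-200 gene (-1.99, -2.02 and -2.03), and *Pml*, which builds nuclear bodies (-2.28, -2.35 and -2.72). *Sp140*, a nuclear body gene of lymphocytes, was higher in GC cells, with 1.33, 1.01 and 1.34. Of the 12 measured sensors *Ddx58*, which encodes RIG-I, was lower in GC cells by -1.95, -1.35 and -1.43, and *Myd88*, an adaptor of Toll-like receptors, had 0.49, 0.35 and 0.25, with an interval above 0 in 3′RR-*BCL2* only. Of 19 genes of the interferon gamma response and of antigen processing 11 passed the limit on level. Of these 2, 1 and 0 were over 1.5-fold higher in GC cells and 3, 3 and 2 over 1.5-fold lower, with median log2 ratios of -0.34, 0.08 and 0.00. *Psmb8* and *Psmb9*, subunits of the immunoproteasome, were higher, with log2 ratios between 0.48 and 0.78, and *Cd274*, which encodes PD-L1, was lower, with -1.06, -1.30 and -1.07.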

How the data were processed

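The deposited values are UMI counts, as whole numbers for every gene in every barcode, and the submitters' processing notes name Cell Ranger 6.1.1. Reads were assigned there to mouse genes, and the human *BCL2* transgene has no row. Here the limits of the study were applied to each barcode, namely 800 to 4500 genes, no more than 20000 UMIs, a mitochondrial share up to 8% and a ribosomal protein share from 10%, and barcodes with 2 or more UMIs from *Cd3* or *C1q* genes were removed. No doublet caller was run. Cells were thinned to 2000 UMIs for stages, anchor groups and shares, which left out 178, 165 and 135 cells in the order WT, 3′RR-*BCL2*, Igκ-*BCL2*. A cell with the GC markers was called GC whatever else it held, and another cell that reached the limits of several stages was left out. Intervals were Poisson for levels and ratios and Clopper-Pearson for shares, computed with scipy 1.17.1 (Python 3.11.15). Those of ratios were checked on simulated Poisson counts only. That check cannot show how they perform where UMIs cluster in cells, because the simulated counts had no such spread. Clusters for an alternative came from scanpy 1.11.5, with interferon and immunoglobulin genes left out.

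The members and lists were chosen with earlier results of these data known. Named in the text are the anchor genes, up to 6 highest and 6 lowest members of each comparison with at least 50 UMIs in both sets, the 6 highest and 6 lowest in anchor-high cells, the 6 most and 3 least abundant members, and up to 4 highest or lowest genes of the related lists. *Ifi47*, *Slfn8*, *Herc6*, *Ifi206*, *Bst2*, *Ifi27l2a*, *Irf9*, *Stat2*, *Irf7*, *Ifnar1*, *Ifnar2*, *Ifng*, *Ifnb1*, *Myd88*, *Igtp*, *Cd274*, *Psmb8* and *Psmb9* were named for their role where this rule did not reach them, after their values were seen. Alternatives were looser cell limits (at least 500 genes and at most 15% mitochondrial UMIs), stages from clusters, other totals, thinning to 1000 or 4000 UMIs, other minimums, other anchor lists and numbers of anchor genes, leaving out the 5% of cells with most UMIs, cells without an anchor UMI, all B-lineage cells and equal weight for each cell. Some genes of the marker and pathway lists are not reported here.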

Additional observations from a re-analysis of the deposited data

How the results depend on the processing

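No paired analysis was possible because there is 1 library per genotype and no result comes from a test. In resting cells the log2 ratio of the summed members for 3′RR-*BCL2* over WT, 0.22, was 0.28 with stages from clusters, 0.20 in cells without an anchor UMI, 0.11 in all B-lineage cells and 0.26 with equal weight for each cell. For Igκ-*BCL2* over WT, 0.06 became 0.12, 0.03, 0.00 and 0.10 in this order, 0.04 with totals without immunoglobulin, ribosomal and mitochondrial genes, and 0.12 without the 5 most abundant members, an alternative added after seeing the data. For Igκ-*BCL2* over 3′RR-*BCL2*, -0.16 became -0.18 with these totals, -0.11 in all B-lineage cells and -0.12 without the 5 most abundant members. Members past 1.5-fold higher in 3′RR-*BCL2* over WT numbered 9 with clusters, and 1 was lower in cells without an anchor UMI. For Igκ-*BCL2* over WT 4 were higher with clusters and 0 with the other totals, in cells without an anchor UMI and in all B-lineage cells, and 4 were lower with looser limits and in all B-lineage cells and 1 with clusters. Members higher in Igκ-*BCL2* than in 3′RR-*BCL2* numbered 11 with clusters and 10 in all B-lineage cells. *Ifit3b* in Igκ-*BCL2* over WT turned to -0.59 in cells without an anchor UMI, which by construction removes its own UMIs.

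The summed log2 ratio of GC over resting cells in WT, -0.84, was -1.22 with looser limits and -0.57 with clusters. In 3′RR-*BCL2*, -1.09 became -1.04 with clusters, -1.04 in cells without an anchor UMI and -0.99 without the 5 most abundant members, and in Igκ-*BCL2*, -1.10 became -0.88 with clusters and -1.01 in cells without an anchor UMI. *Ifi27l2a* in WT turned to 0.20 with clusters. In the clusters called GC, 30.7% and 12.7% of cells were resting cells by markers. The part of this mixing in the changed values was not tested.

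The log2 ratio of the other members in anchor-high over anchor-free cells, 2.62 in WT, was 3.28 and 2.39 with thinning to 1000 and 4000 UMIs, 2.88, 2.90 and 2.90 with an anchor list without *Ifit1*, *Ifit3b* or *Usp18*, and 3.27 without the 5 most abundant members. In 3′RR-*BCL2*, 3.10 became 3.25 and 2.75 with thinning, 3.21, 3.27, 3.24 and 3.20 without *Ifit1*, *Ifit3*, *Isg15* or *Usp18*, and 3.66 without the 5 most abundant members. In Igκ-*BCL2*, 3.17 became 3.26 and 2.97 with thinning, 3.88 and 3.52 without *Ifit3* or *Usp18*, and 3.71 without the 5 most abundant members. The share of anchor-high cells depends on depth by construction. With 1000 and 4000 UMIs it was 0.0101% and 0.314% in WT and 0.107% and 0.663% in 3′RR-*BCL2*, and with 4000 UMIs 0.375% in Igκ-*BCL2*. With at least 2 anchor genes it was 0.502%, 0.766% and 0.524% in WT, 3′RR-*BCL2* and Igκ-*BCL2*, and with at least 4 it was 0.0205%, 0.141% and 0.0164%. The share of member UMIs in the highest 5% of cells was 21.6%, 22.8% and 23% with 1000 UMIs and 20%, 20.3% and 20.6% with 4000. Of the other recomputed values, 93 that answer a comparison and 236 of single genes stayed within the interval or within 1.5 times the count, and 21 of single genes moved further. Among these, *Rsad2* and *Isg20* in 3′RR-*BCL2* over WT, both 0.05, were -0.70 and -0.15 in cells without an anchor UMI, and *Rsad2* was 0.64 with clusters. Ratios of *Ifi44* in Igκ-*BCL2*, where it had 0 UMIs, could not be recomputed.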
